A study of Mus musculus with 2 samples.

Results

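Forkhead transcription factors bind DNA through a winged-helix domain called the forkhead box. Described here are 10 mouse genes of this family, Foxc1, Foxc2, Foxo1, Foxo3, Foxp1, Foxp2, Foxp4, Foxq1, Foxk1 and Foxn3. They were taken by gene symbol from the 17333 genes listed in either library of an RNA sequencing study of the mammary gland, and all 10 were listed in both libraries. The study sorted fresh cells of adult virgin mice aged 8 weeks that lacked lineage markers and carried CD105, CD31 and Sca1 at the surface. Procr, the receptor for protein C on endothelial cells, was then used to split them into a Procr-positive and a Procr-negative population, called Procr+ and Procr- below. The labels name both populations as vascular endothelial cells of the mouse mammary gland. They give no strain, transgene or treatment, nor how many animals were pooled. Each population gave 1 library, so the spread between replicates is unknown and no p-values were computed. Intervals are exact 95% counting intervals and do not cover differences among mice, sorts or library preparations.

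The FOXO proteins act below insulin and growth factor receptors: the kinase AKT phosphorylates them, which moves them out of the nucleus and stops them from switching on genes of growth arrest and stress defence. FOXC proteins are needed in the mouse embryo for the formation of arteries, lymphatic vessels and the heart. FOXP proteins mostly repress transcription and bind DNA as pairs of subunits. In endothelium FOXO1 is known for keeping vessels quiescent, and in the mammary epithelium the related protein FOXA1 opens chromatin for the oestrogen receptor.

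The DNA-contacting helix of the forkhead box shows how close the members are, and hence how well short reads could tell them apart. The coding sequences of 8 members are shown with the codons for the core of the recognition helix in capitals, arginine-histidine-asparagine-leucine-serine in each of them. They come from GENCODE M21 transcripts on GRCm38, the assembly behind mm10, and are given 5′ to 3′ on the coding strand.
Foxc1: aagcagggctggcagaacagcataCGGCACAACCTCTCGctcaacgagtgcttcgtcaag
Foxc2: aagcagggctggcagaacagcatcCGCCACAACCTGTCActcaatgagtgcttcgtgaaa
Foxo1: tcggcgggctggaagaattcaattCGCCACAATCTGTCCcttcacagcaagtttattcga
Foxo3: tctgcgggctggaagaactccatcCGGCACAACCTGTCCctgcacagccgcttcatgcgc
Foxp4: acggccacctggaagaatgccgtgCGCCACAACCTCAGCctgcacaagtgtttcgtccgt
Foxq1: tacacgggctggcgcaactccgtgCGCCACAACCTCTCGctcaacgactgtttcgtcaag
Foxk1: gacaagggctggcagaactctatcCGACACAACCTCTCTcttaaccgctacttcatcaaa
Foxn3: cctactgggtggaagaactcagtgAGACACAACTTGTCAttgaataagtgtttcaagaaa

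The window of Foxc1 lies at chr13:31807562-31807621 (plus strand) and that of Foxc2 at chr8:121116948-121117007 (plus strand), each within the 1 exon of its gene. The window of Foxq1 lies at chr13:31559382-31559441 (plus strand), also in a gene of 1 exon. That of Foxn3 lies at chr12:99388382-99388441 (minus strand), in exon 2 of 6. The windows of Foxo1, Foxo3, Foxp4 and Foxk1 each span the junction of neighbouring coding exons. Over these 60 bases Foxc1 and Foxc2 had 88.3% of bases in common, and Foxo1 and Foxo3 78.3%. Across subfamilies, Foxc1 had 78.3% in common with Foxq1, as much as that FOXO pair, 73.3% with Foxk1 and 53.3% with Foxo1.

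These similarities bear on the counts because the authors kept only uniquely mapped reads. Genes with 1 read had 49 bases covered in both libraries, so a read spanned about 49 bases. The longest identical run was 53 bases between the Foxc1 and Foxc2 transcripts, 38 between Foxo1 and Foxo3, 23 between Foxk1 and Foxk2 and 21 between Foxp1 and Foxp4. Of the 49-base windows of each transcript, 0.0863% in Foxc1 and 0.187% in Foxc2 also occurred in the other of the pair, and no other member had a window in common with another Fox gene. Windows found in transcripts of genes outside the family made up 6.85% in Foxo1, 4.81% in Foxp1, 2.26% in Foxn3 and 0.162% in Foxk1. In Foxq1 this share was far larger, since 65.7% of the windows of its 4843-base transcript also lie in A530084C06Rik, which GENCODE places on the opposite strand. A530084C06Rik is not listed under that symbol in either library, and no use of strand is given in the sources used here. Reads from the shared windows therefore cannot be assigned to Foxq1 or to that RNA. The deposited length of Foxq1 is 2821 bases, and the shared part of that length was not computed.

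The Procr+ library held 9.22 M and the Procr- library 9.57 M unique reads. At these depths, 3 reads on a gene of 1 kb correspond to 0.325 and 0.314 RPKM (reads per kb of gene per M reads, as deposited). All 20 genes of a pan-endothelial marker list had at least 2-fold more in the Procr+ library, with their levels summing to 3807 against 373 RPKM. Of 20 mammary epithelial markers, none was 2-fold higher and 17 were lower, and their levels summed to 930 against 19750 RPKM. Procr itself stood at 1321 against 147 RPKM, Pecam1, the gene of CD31, at 712 against 52.7 RPKM, and Krt8, a keratin of simple epithelia, at 262 against 5941 RPKM. Each ratio of a forkhead gene below stands beside this difference in marker levels, and the part that the mix of cells has in it was not tested. In sorted bulk cells, fewer cells of a type and less RNA per cell cannot be told apart.

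The summed level of the 10 genes was nearly equal in both libraries, while its make-up differed. Their RPKM summed to 133 in the Procr+ and 133 in the Procr- library, from 6041 and 5976 reads. Within this sum Foxo1 gave 45.1 RPKM in the Procr+ and 24.1 RPKM in the Procr- library, and Foxp4 29.7 and 54.7 RPKM. The RPKM of all Fox genes, a larger set, summed to 222 in the Procr+ and 255 in the Procr- library. Of that wider sum Foxo1 alone made up 20.3% in the Procr+ library and 9.44% in the Procr- library. Foxp4 made up 13.4% and 21.5% of it. On the log2 scale of RPKM + 1, which understates the differences of low genes, Foxc1 and Foxc2 passed 2-fold towards the Procr+ library, whereas Foxk1 and Foxq1 passed it towards the Procr- library. Foxo1, Foxo3, Foxp1, Foxp4 and Foxn3 lay between these thresholds. The background among 12509 genes with at least 1 RPKM in either library was 13.1% at least 2-fold higher and 23.7% at least 2-fold lower. The same 4 genes had counting intervals beyond 2-fold, against a background of 12.2% in the higher and 20.1% in the lower direction. Once log ratios were centred on the median of all genes, Foxo1 and Foxp1 also passed 2-fold higher and Foxq1 no longer passed 2-fold lower, with backgrounds of 19.4% and 13.1%. Upper-quartile scaling likewise added Foxo1 and Foxp1, with backgrounds of 17.1% higher and 16.1% lower. With a minimum of 5 RPKM, Foxc1 alone of the 10 genes was higher and Foxk1 alone lower, with backgrounds of 14.4% and 25.3%.

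Foxc2 reached the minimum of 1 RPKM only in the Procr+ and Foxq1 only in the Procr- library, so these had to differ in that direction, and Foxp2 did not reach it. For the 9 genes that reached it, the counting interval of the ratio of RPM (reads per M reads, with no length or pseudocount) excluded 1. It lay above 1 for 5 genes and below 1 for 4, against backgrounds of 26.7% and 55.2% of all 12509 genes. The median log2 ratio was 0.32 over these 9 genes and −0.38 over all 12509 genes.

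**Figure D1:**
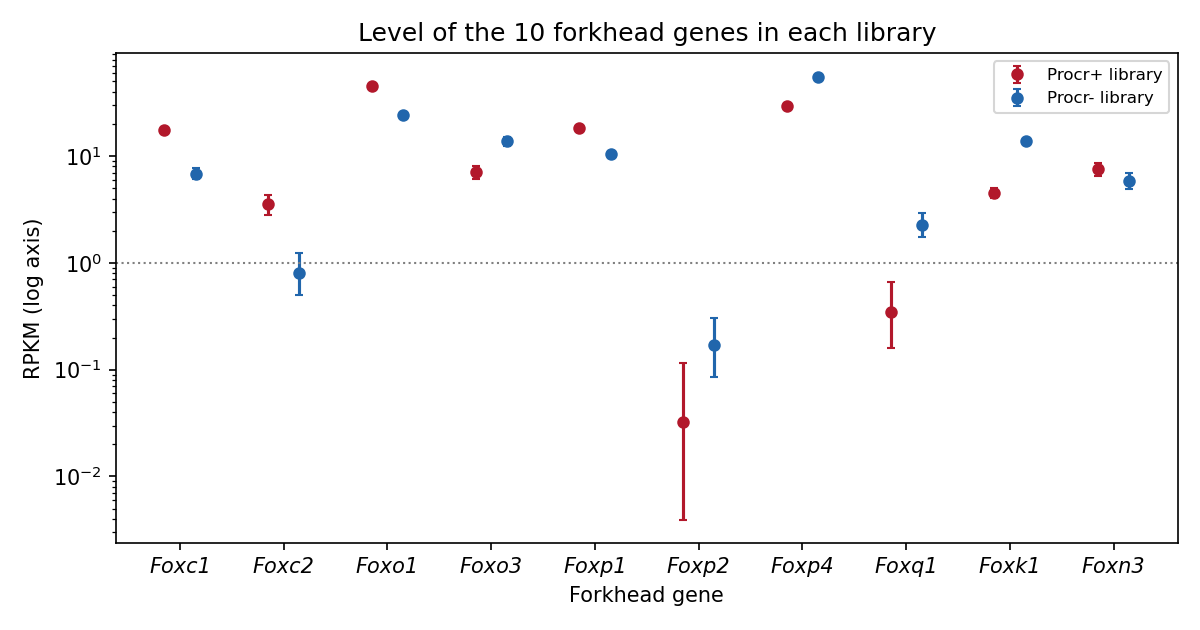
Level of each forkhead gene in RPKM (log axis) in the Procr+ (red) and Procr- (blue) library. Bars are exact 95% Poisson counting intervals, the dotted line marks 1 RPKM, and Foxo1 leads in the Procr+ library at 45.1 RPKM and Foxp4 in the Procr- library at 54.7 RPKM.

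The FOXC genes, which act in arterial and lymphatic vessel formation, were both higher in the Procr+ library. Foxc1 (NCBI gene 17300, chromosome 13, 31806646 to 31810635) had 639 reads in the Procr+ and 262 reads in the Procr- library, or 17.4 and 6.87 RPKM. Its ratio was 2.53-fold (2.19 to 2.93) and its log2 ratio of RPKM + 1 was 1.22. Foxc2 (NCBI gene 14234, chromosome 8, 121116171 to 121118895) was much lower in level, at 89 reads and 3.52 RPKM against 21 reads and 0.802 RPKM. Its ratio of 4.40-fold had the wider interval (2.71 to 7.45), and its log2 ratio was 1.33, the highest of the 10 genes. The reads of Foxc2 covered 79.0% of the gene's length in the Procr+ and 30.6% in the Procr- library, where reads spread evenly would have covered 79.7% and 31.3%. Foxc1 thus gave most of the FOXC level in both libraries, with 4.93 times the RPKM of Foxc2 in the Procr+ and 8.56 times in the Procr- library.

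The FOXO genes divided, with Foxo1 higher and Foxo3 lower in the Procr+ library, neither by 2-fold on the log2 scale. Foxo1 (NCBI gene 56458, chromosome 3, 52268337 to 52350109), the main FOXO gene of endothelium in the mouse embryo, had 2307 reads and 45.1 RPKM in the Procr+ and 1279 reads and 24.1 RPKM in the Procr- library. Its ratio was 1.87-fold (1.75 to 2.0) with a log2 ratio of 0.88. It stood at percentile 87.8 of the 12509 genes by level in the Procr+ and at percentile 75.2 in the Procr- library. Foxo3 (NCBI gene 56484, chromosome 10, 42181845 to 42276695), which acts with Foxo1 to restrain endothelial growth in mice, went the other way. It had 187 reads and 7.02 RPKM against 379 reads and 13.7 RPKM, and was 1.95-fold higher in the Procr- library (1.64 to 2.34; log2 ratio −0.88). Foxo4 was higher in the Procr+ library, as Foxo1 was, at 12.6 against 7.74 RPKM (1.63-fold, 1.38 to 1.93). Foxo6, with 27 and 10 reads, stood at 1.16 against 0.414 RPKM (2.80-fold, 1.31 to 6.49), and it reached 1 RPKM only in the Procr+ library, which fixed its direction. FOXO genes together made up 29.7% of the summed Fox RPKM in the Procr+ and 18.0% in the Procr- library.

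The FOXP genes also divided. Foxp1 (NCBI gene 108655, chromosome 6, 98925342 to 99522746), a repressor with roles in endothelial, B cell and heart development, had 1204 reads and 18.2 RPKM in the Procr+ and 715 reads and 10.4 RPKM in the Procr- library. That is a 1.75-fold difference (1.59 to 1.92; log2 ratio 0.75). Foxp4 (NCBI gene 74123, chromosome 17, 47867133 to 47924632), known for its part in lung and gut epithelium, had 1112 reads and 29.7 RPKM against 2123 reads and 54.7 RPKM. It was 1.84-fold higher in the Procr- library (1.71 to 1.98; log2 ratio −0.86) and there had the highest level of all Fox genes. Foxp2 (NCBI gene 114142, chromosome 6, 14901349 to 15441977), best known from brain circuits for vocal learning, was barely detected, with 2 reads in the Procr+ and 11 reads in the Procr- library. These correspond to 0.0321 and 0.170 RPKM, and the ratio of 5.30-fold higher in the Procr- library had an interval from 1.16 to 49.2. The 11 reads covered 7.97% of the gene, the share that 11 reads of 49 bases give when none overlaps another.

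Foxk1, Foxn3 and Foxq1 belong to different branches of the family. Foxk1 (NCBI gene 17425, chromosome 5, 142401497 to 142462015), a partner of the SIN3 corepressor that holds back autophagy genes, had the lowest log2 ratio of RPKM + 1 of the 10 genes, whereas by the ratio of RPM, and on the log2 scale with a smaller pseudocount, Foxq1 was lower still. It had 311 reads and 4.52 RPKM in the Procr+ and 979 reads and 13.7 RPKM in the Procr- library. It was thus 3.03-fold higher in the Procr- library (2.67 to 3.46; log2 ratio −1.41). Its reads covered 80.2% of the gene in the Procr+ library, against 87.0% for reads spread evenly. Foxn3 (NCBI gene 71375, chromosome 12, 99190081 to 99563667), a repressor whose human gene was first found as a suppressor of yeast checkpoint mutants, differed least. It had 181 reads and 7.52 RPKM against 146 reads and 5.85 RPKM, a ratio of 1.29-fold (1.03 to 1.61; log2 ratio 0.32).

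Foxq1 (NCBI gene 15220, chromosome 13, 31558170 to 31560976), which acts in hair and stomach epithelium in mice and has been tied to epithelial-mesenchymal transition in cancer cells, had 9 reads in the Procr+ and 61 reads in the Procr- library. These are 0.346 and 2.26 RPKM. The ratio was 6.53-fold higher in the Procr- library, with a wide interval (3.23 to 15; log2 ratio −1.28), and the overlap with A530084C06Rik described above applies to it. The 9 reads covered 15.6% of the deposited length, again with no overlap between reads. The 61 reads covered 58.3%, against 65.3% for reads spread evenly.

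The order of the 10 levels differed between the libraries. In the Procr+ library Foxo1 came first, Foxp4 second, and then Foxp1 and Foxc1, whose intervals overlapped (17.2 to 19.3 and 16.1 to 18.8 RPKM). Foxn3 and Foxo3 followed with overlapping intervals, then Foxk1 and Foxc2, again overlapping, and Foxq1 and Foxp2 came last. In the Procr- library Foxp4 came first and Foxo1 next, followed by Foxk1 and Foxo3, which did not differ beyond counting error at 13.7 RPKM each. Below them came Foxp1 (9.67 to 11.2 RPKM), then Foxc1 and Foxn3 with overlapping intervals, Foxq1, Foxc2 and Foxp2. Levels between genes depend on the deposited gene length. That length was 33.9% of the longest GENCODE transcript for Foxn3, 42.2% for Foxo3, 58.2% for Foxq1, 64.1% for Foxo1 and 68.3% for Foxc1, whereas for Foxc2, Foxp1, Foxp2, Foxp4 and Foxk1 it was 100% or 101%. The lengths were equal in both libraries, so ratios between libraries that carry no pseudocount are not affected. The log ratio of RPKM with its pseudocount, and the minimum level in RPKM, do depend on the length used. Whether the calls, that of Foxq1 among them, would hold with the longer lengths was not tested.

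Setting related genes against each other within a library removes the scaling of that library. It shows how their relative levels differed between the libraries, and not the direction of either gene alone. Foxo1 had 6.42 times the RPKM of Foxo3 in the Procr+ and 1.76 times in the Procr- library, a 3.66-fold change of the ratio (3.02 to 4.44). Foxp1 had 0.612 times the RPKM of Foxp4 in the Procr+ and 0.190 times in the Procr- library, a 3.22-fold change (2.85 to 3.62). Both intervals excluded 1. For Foxc1 over Foxc2 the ratio was 1.74 times larger in the Procr- library (1.04 to 3.01), and for Foxk1 over its close relative Foxk2 1.79 times larger there (1.45 to 2.20). For Foxn3 over Foxn2 it was 1.37 times larger in the Procr+ library (1.07 to 1.76). The ratio of Foxo1 to Foxo4 was 3.58 and 3.11, and the interval of its change held 1 (1.15-fold, 0.958 to 1.38).

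**Figure D2:**
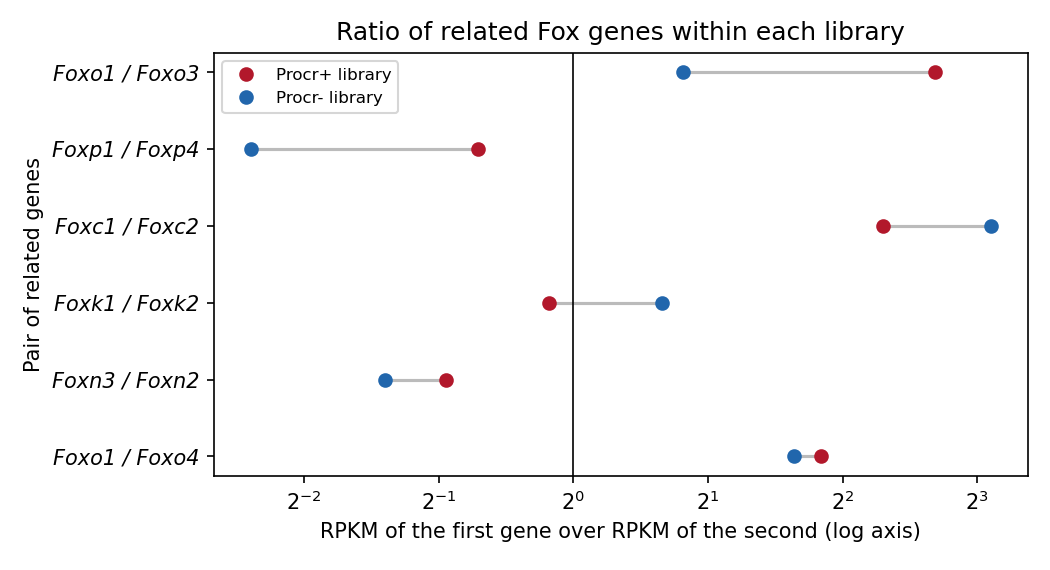
RPKM of the first gene over that of the second (log axis) for 6 pairs of related Fox genes, in the Procr+ (red) and Procr- (blue) library. The points of Foxo1 over Foxo3 lie at 6.42 and 1.76 and those of Foxp1 over Foxp4 at 0.612 and 0.190, whereas those of Foxo1 over Foxo4 lie close together at 3.58 and 3.11.

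The other Fox genes gave the wider range of ratios. Of 44 Fox genes in the RefSeq table, 35 were listed in either library and 20 reached 1 RPKM, 11 of them outside the 10 genes described. The 15 listed below that level, Foxp2 among them, had at most 11 reads. Among the 20, Foxs1, a gene of pericytes in mice, had the highest ratio, at 16.5 against 2.39 RPKM (6.92-fold, 4.70 to 10.5). Foxf1, which acts in lung endothelium and gut mesenchyme, followed with 6.08 against 1.34 RPKM (4.55-fold, 3.06 to 6.96). At the other end Foxa1, the oestrogen receptor's pioneer factor, stood at 1.57 RPKM in the Procr+ and 45.2 RPKM in the Procr- library. It was thus 28.9-fold higher in the latter (21.5 to 39.7), where it made up 17.7% of the summed Fox RPKM. Foxj1, which drives motile cilia formation, was 9.55-fold higher there (5.13 to 19.7) from 11 and 109 reads, and it reached 1 RPKM only in that library, which fixed its direction.

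The remaining 5 Fox genes at or above 1 RPKM differed less. Foxj3 was 1.77-fold (1.60 to 1.96), Foxk2 1.70-fold (1.44 to 2.0) and Foxm1, a driver of mitotic genes, 1.48-fold (1.14 to 1.93) higher in the Procr- library. Foxj2 was 1.48-fold higher in the Procr+ library (1.30 to 1.67). Foxn2 had 681 and 753 reads, with an interval that held 1 (0.938-fold, 0.845 to 1.04).

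**Figure D3:**
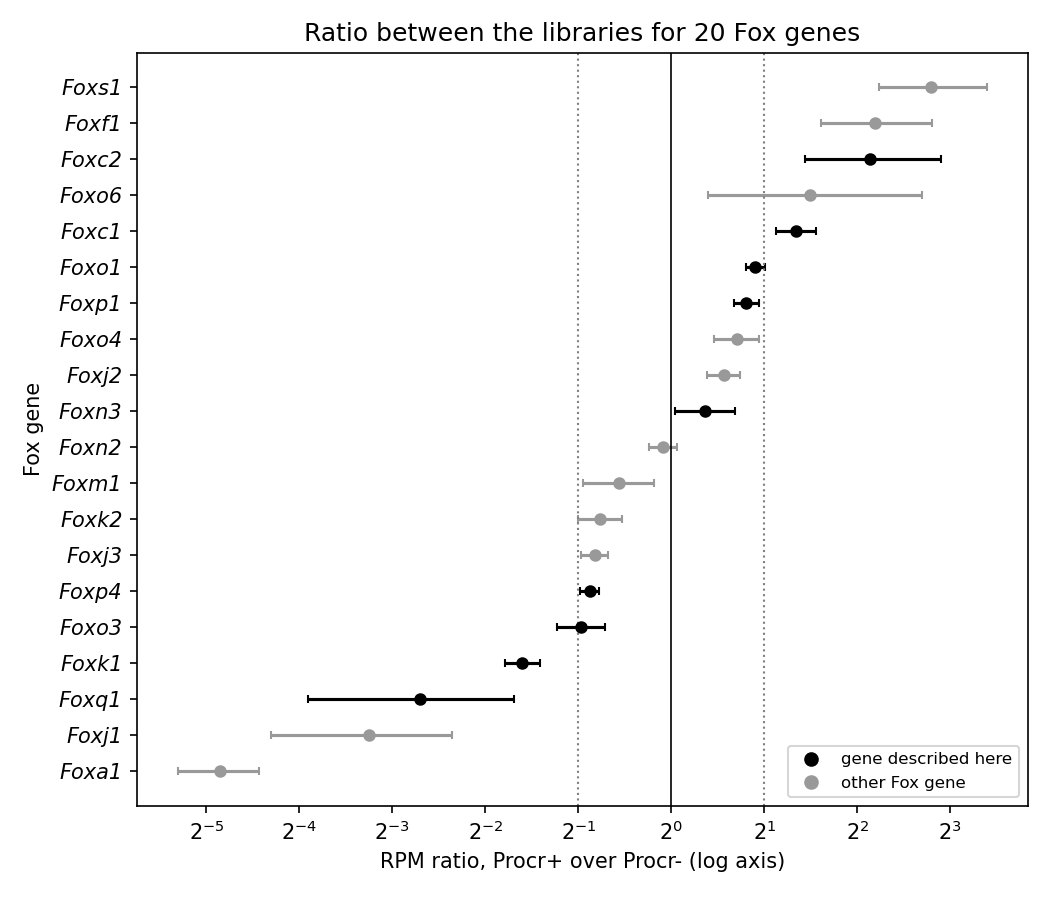
Ratio of RPM, Procr+ over Procr- (log axis), for the 20 Fox genes with at least 1 RPKM in either library. Black points are the genes described in detail and grey points the other Fox genes, bars are exact 95% counting intervals, dotted lines mark 2-fold, and the ratios run from 0.0346 for Foxa1 to 6.92 for Foxs1.

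Several members lie in small clusters of Fox genes. On chromosome 13, Foxq1, Foxf2 and Foxc1 follow each other within the span from 31558170 to 31810635. Foxc1 was higher in the Procr+ library, Foxq1 was higher in the Procr- library, and Foxf2 between them had 8 and 2 reads. On chromosome 8, Foxf1, Foxc2 and Foxl1 lie between 121084386 and 121130644, with starts 31.8 kb and 11.5 kb apart. Foxf1 and Foxc2, both higher in the Procr+ library, had ratios of 4.55-fold and 4.40-fold with overlapping intervals. Foxl1 had 3 and 2 reads.

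The promoters of the FOXO pair are shown because these genes differed in opposite directions, with those of Foxp4 and Foxc1 for comparison. RefSeq promoters on GRCm38.p6 were at hand for 6 of the 10 genes. The last 100 bases before the annotated start are given 5′ to 3′ on the strand of the gene. Capitals mark matches, on either strand, to the forkhead site TGTTTAC, the ETS core CCGGAA, the GC box GGGCGG, the CCAAT box CCAAT, the E-box CACGTG and the TATA box TATAAA.
Foxo1: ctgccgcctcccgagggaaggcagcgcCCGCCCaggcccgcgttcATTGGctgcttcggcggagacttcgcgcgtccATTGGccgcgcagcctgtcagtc
Foxo3: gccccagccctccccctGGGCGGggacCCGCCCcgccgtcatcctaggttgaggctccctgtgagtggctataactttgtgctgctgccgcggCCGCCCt
Foxp4: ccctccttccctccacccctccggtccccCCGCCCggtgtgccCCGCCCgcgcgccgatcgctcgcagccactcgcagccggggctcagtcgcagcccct
Foxc1: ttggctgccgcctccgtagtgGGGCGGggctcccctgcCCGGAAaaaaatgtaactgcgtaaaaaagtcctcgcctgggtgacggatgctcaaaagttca

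These stretches lie at chr3:52268237-52268336 (plus strand), chr10:42276696-42276795 (minus strand), chr17:47924633-47924732 (minus strand) and chr13:31806546-31806645 (plus strand). In the 250 bases before the start, Foxo1 had 2 GC boxes and 3 CCAAT boxes, Foxo3 had 5 GC boxes, Foxp4 had 2 GC boxes, and Foxc1 had 1 GC box, 1 CCAAT box and 1 ETS core. Among 32851 RefSeq promoters, a window of this length held the GC box in 32.7%, the CCAAT box in 33.8% and the ETS core in 12%. It held the TATA box in 12.4%, the E-box in 6.02% and the forkhead site in 3.17%, so most promoters lack each of these 3. The forkhead site, the E-box and the TATA box were found in none of the 8 windows of the 6 genes, 3 of which belong to alternative starts of Foxp1. A match in these letters describes the sequence and is not a measured binding site.

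Genes reported as FOXO targets were mixed, and most lay within 2-fold. Of 35 target genes with at least 1 RPKM, 9 (25.7%) were at least 2-fold higher and 2 (5.71%) lower in the Procr+ library, against backgrounds of 13.1% and 23.7%, with a median log2 ratio of 0.31 against −0.38 over all genes. The cyclin gene Ccnd2, which FOXO proteins repress, stood at 22.7 against 2.26 RPKM (10.02-fold, 8.33 to 12.1). Angpt2, the angiopoietin ligand gene that FOXO1 induces in endothelium, stood at 62.0 against 7.99 RPKM (7.77-fold, 6.84 to 8.85). Nos3, the endothelial nitric oxide synthase gene, stood at 75.9 against 11.0 RPKM (6.89-fold, 6.23 to 7.64), and the insulin receptor gene Insr at 42.5 against 6.36 RPKM (6.68-fold, 6.11 to 7.31). The list thus holds targets that FOXO proteins induce and targets that they repress among its highest genes, and several are general genes of endothelium. The 2 lower targets were Esm1 and Gadd45a, named after their values were seen. Esm1, with 18 reads in the Procr+ and 91 in the Procr- library, reached 1 RPKM only in the latter, which fixed its direction.

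Genes of kinases and other proteins that act on FOXO lay mostly within 2-fold. Of 28 such genes with at least 1 RPKM none was 2-fold higher and 3 (10.7%) were lower, against backgrounds of 13.1% and 23.7%. The median log2 ratio was −0.24, against −0.38 over all genes. The lower genes were Pik3cb, a catalytic subunit of the lipid kinase PI3K (3.93 against 21.9 RPKM, 5.56-fold higher in the Procr- library, 4.73 to 6.56), Stk4, the Hippo kinase MST1 (2.38 against 9.77 RPKM), and Pdpk1, which activates AKT (5.99 against 14.1 RPKM). The regulatory PI3K subunit gene Pik3r1 stood at 30.6 against 14.8 RPKM, at the threshold with a log2 ratio of 0.9985.

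Genes reported as FOXC targets or vascular partners included many that were higher in the Procr+ library. Of 19 with at least 1 RPKM, 10 (52.6%) were at least 2-fold higher and 1 (5.26%), Tbx1, was lower in the Procr+ library, against the same backgrounds, with a median log2 ratio of 1.40. Tbx1 had 2 reads in the Procr+ and 26 reads in the Procr- library. It reached 1 RPKM only in the latter, which fixed its direction. The list of FOXC targets and partners is made largely of endothelial genes, and the pan-endothelial median was 3.33. Rasa4, a Ras GTPase-activating protein gene, had the highest ratio (81.6 against 3.66 RPKM, 22.3-fold, 18.3 to 27.5). The Notch ligand gene Dll1 stood at 47.8 against 4.43 RPKM (10.8-fold, 9.10 to 12.9) and the VEGF receptor gene Kdr at 79.9 against 11.1 RPKM (7.23-fold, 6.62 to 7.90). Of 19 corepressor genes that partner FOXP, FOXK or FOXN3 proteins, none was 2-fold higher and 1 (5.26%) was 2-fold lower. The backgrounds were 13.1% and 23.7% of all genes. The median log2 ratio of these 19 genes was −0.52, against −0.38. Values were lower in the Procr+ library for Mta1 (14.6 against 29.0 RPKM) and Gatad2b (12.5 against 23.1 RPKM), subunits of the NuRD complex, and Sin3b (20.7 against 33.1 RPKM), none of these 3 past 2-fold.

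The lowest log2 ratio in the pan-endothelial list was 1.84, above the 1.33 of Foxc2, so all 20 pan-endothelial genes exceeded every one of the 10 genes on this scale. By the ratio of RPM 18 of the 20 exceeded Foxc2, and Cldn5 (3.62-fold) and Egfl7 (4.11-fold), named after their values were seen, lay below its 4.40-fold. The list was led by Vwf (24.8-fold, 22.8 to 27.0), Emcn (16.6-fold) and Ptprb (16.3-fold). At the other end 16 of 20 epithelial genes lay below the −1.41 of Foxk1, and 4, the basal and myoepithelial genes Krt14, Krt5, Trp63 and Krt17, lay within the range of the forkhead genes at −0.44, −0.57, −0.85 and −1.14. The epithelial median was −4.23, with Wfdc2 (37.0-fold), Krt7 (33.6-fold), Cldn4 (27.0-fold) and Krt19 (26.7-fold) higher in the Procr- library. Hormone-sensing luminal genes, a list that includes Foxa1 and the sorting antigen gene Ly6a, were lower in 9 of 10 cases (median log2 −3.86). Areg, Prlr, Pgr and Cited1 led it, with Pgr at 0.283 against 24.5 RPKM.

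Pericyte and smooth muscle genes, among them Foxs1, were at least 2-fold higher in 15 of 16 cases (median log2 2.61), led by Vtn (18.0-fold), Rgs5 (14.7-fold), Myl9 (11.9-fold) and Des (12.5-fold). Their levels summed to 1797 against 228 RPKM. Of 13 fibroblast genes, 1 was higher and 8 were lower (median log2 −1.31), with Dcn at 17.8 against 287 RPKM and sums of 233 against 769 RPKM. Of 10 leukocyte genes, 7 were higher and none was lower (median log2 1.15). Their defining gene Ptprc was low, at 3.37 against 0.920 RPKM, and the sum of 943 against 281 RPKM came mostly from Cd14, at 869 against 250 RPKM. Of 7 lymphatic genes, 1 was higher, 2 were lower and 4 lay between the thresholds (median log2 −0.31). Lyve1, 1 of the lower genes, stood at 3.95 against 55.3 RPKM, whereas the higher gene Itga9 stood at 17.5 against 3.05 RPKM.

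**Figure D4:**
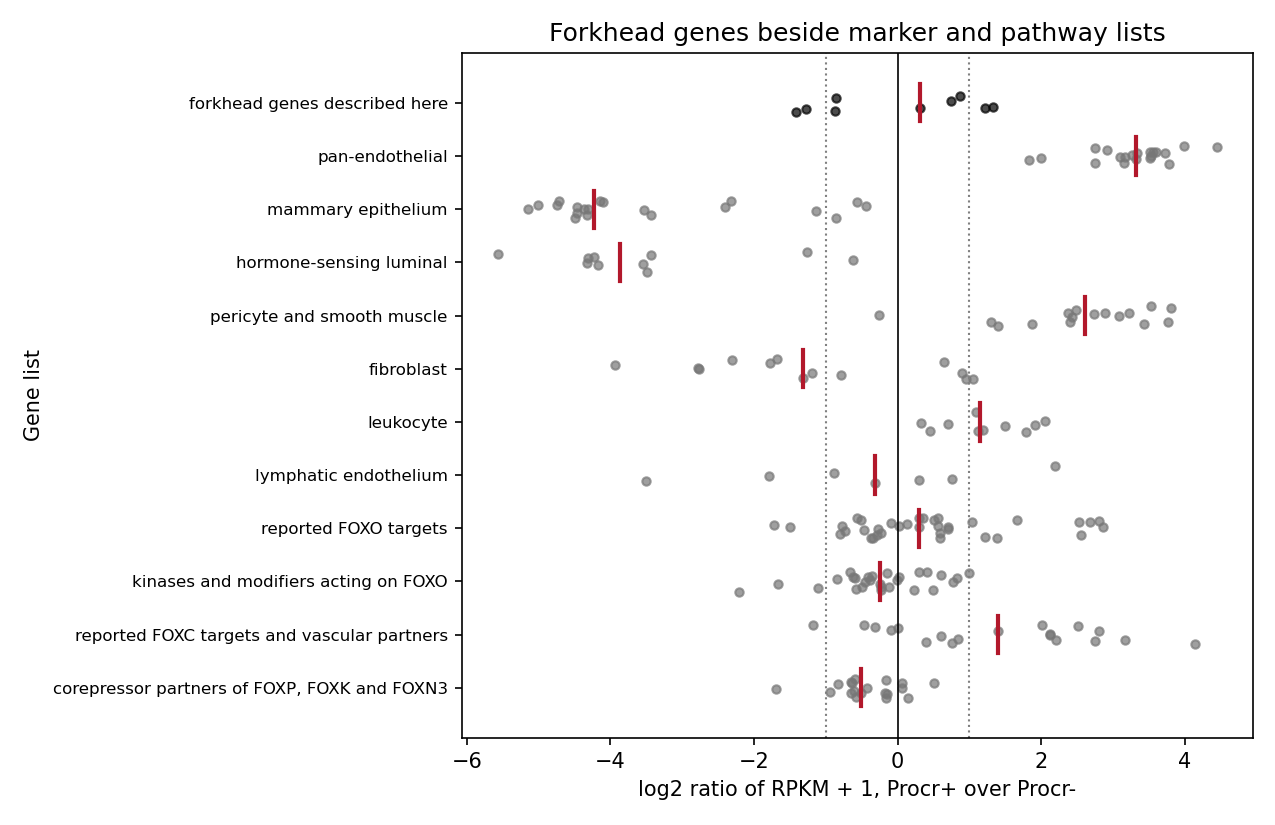
Log2 ratio of RPKM + 1, Procr+ over Procr-, of the 9 forkhead genes with at least 1 RPKM (black) and of the genes in each marker and pathway list (grey). Red bars are medians and dotted lines mark 2-fold. The forkhead genes spread from −1.41 to 1.33, between the pan-endothelial median of 3.33 and the epithelial median of −4.23.

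Genes with the most similar levels in both libraries were sought for Foxk1, which had the lowest log2 ratio of RPKM + 1, among 8899 other genes with at least 5 RPKM in either library. The nearest to Foxk1 were Gid8 (4.51 and 13.5 RPKM), Chd9 (4.63 and 13.9 RPKM) and Trappc1 (4.66 and 13.6 RPKM), at distances of 0.024 to 0.037. This likeness rests on 2 libraries, and many genes can match by level alone. Foxc2, which had the highest log2 ratio, does not itself reach 5 RPKM, so genes at its level were not among the candidates and none are given for it.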

How the data were processed

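Libraries of total RNA were read from 1 end on an Illumina HiSeq, and reads with a unique place in mm10 were kept, per the labels' protocols, with aligner, counter, annotation and strand not given in the sources used here. The authors deposited whole read counts per gene, RPKM, the percent of each gene's length covered, and the gene length. A gene absent from a file was taken as 0 reads. Deposited RPKM values equalled reads per kb of listed length per M reads of the library.

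Reads were scaled to the library total. A gene was called from 2-fold on log2(RPKM + 1), among genes with at least 1 RPKM in either library. With 1 library per group no test was possible. Ratios of RPM carry exact conditional binomial (Clopper-Pearson) 95% intervals, levels exact Poisson ones and ratios of ratios exact conditional odds-ratio ones, for counting error only, since PCR copies are not independent molecules. The 10 members and 11 gene lists were chosen with earlier results of these data known. The genes named are the 10 members, Fox genes with at least 1 RPKM, Procr, Pecam1, Krt8 and Ptprc, in each list up to 4 genes furthest from 0 in log2 ratio, and the 3 genes nearest in level to the member with the lowest log2 ratio, those for the highest being left out because Foxc2 is below the minimum of that search. Cldn5, Egfl7, Krt14, Krt5, Trp63, Krt17, Tbx1, Esm1, Gadd45a and A530084C06Rik, and Fox genes below 1 RPKM in the clusters, are named outside this rule, after their values were seen. Some genes and sequences that the rule covers are not reported here. Python 3.11.15 with numpy 2.4.6, pandas 2.3.3 and scipy 1.17.1 was used.

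In simulated Poisson reads for 17333 genes at both depths, 100% of 100 genes changed 4-fold and 22% of 100 genes changed exactly 2-fold passed the threshold. The changed genes were drawn only from those with at least 100 expected reads before the change. Foxc2, Foxq1 and Foxp2 lie below that, so these shares do not cover them. Of 11909 unchanged genes, 0.285% passed the threshold. The simulation held counting error only, with no spread among mice, sorts or library preparations.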

Additional observations from a re-analysis of the deposited data

How the results depend on the processing

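The 9 forkhead genes with at least 1 RPKM kept the sign of their log2 ratio under every one of 8 other settings that gave a value. A changed minimum leaves a ratio as it was and a changed pseudocount cannot turn its sign. Agreement in sign under those settings was therefore fixed in advance. Foxk1 stayed at least 2-fold lower under all 8 and Foxc1 at least 2-fold higher under all 8, while Foxq1 ranged from −2.58 to −0.90. Foxq1 was below Foxk1 with a pseudocount of 0.1 (−2.40 against −1.58) or 0.5 (−1.71 against −1.50), with TPM (−1.74 against −1.47) and with RPM and a prior of 1 read (−2.58 against −1.60). Members at least 2-fold higher numbered 4 rather than 2, Foxo1 and Foxp1 added, when log ratios were centred on the median of all genes or scaled by the upper quartile, as genes in all rose from 1643 to 2426 and 2139. Centring left 1 member and 1644 genes in all at least 2-fold lower. A minimum of 5 RPKM left 1 member higher and 1 lower, since Foxc2 and Foxq1 no longer entered, with 1281 genes in all higher and 2256 lower. Requiring the counting interval to exclude 2-fold gave 2 members in each direction. Centring on the pan-endothelial median, chosen after the data were seen, left 0 members and 10 genes at least 2-fold higher and 9 members and 12082 genes lower, with Foxc1 at −2.10 and Foxc2 at −2.00. No paired analysis was possible because each group has 1 library, and for the same reason no replicate could be left out. Genes of few reads, such as Foxp2 and Foxq1, are limited by depth.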
